A study of Mus musculus with 20 samples.

Results

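The comparison described here set unoperated gastrocnemius against unoperated triceps in non-transgenic (NTg) mice. Its 8 arrays, of 20 in the series, were taken by title: 4 of NTg gastrocnemius and 4 of NTg triceps. All 8 came from female C57BL/6 mice with no transgene, aged 14 weeks. Gastrocnemius is a calf muscle of the hind limb and triceps an extensor of the elbow in the fore limb. In the series these mice are the controls for mice carrying mutant human SOD1 (SOD1G93A), a model of amyotrophic lateral sclerosis, and for mice with a crushed sciatic nerve. The titles call the arrays biological replicates, but the labels do not say whether arrays of one number in both muscles came from 1 animal. The values are log2 MAS5 signals of whole muscle, one number per probe set, and a difference of 1 is a 2-fold difference in signal.

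Limb muscles mix slow and fast fibres. Slow fibres use a separate set of myosin, troponin and tropomyosin genes, clear calcium with a slower pump and resist fatigue, while fast fibres use fast isoforms of the same proteins. Muscles of fore and hind limb also differ in the position genes, above all the Hox genes, that their connective tissue and precursor cells carried in the embryo and partly keep in the adult.

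Both muscles read as skeletal muscle. All 9 muscle fibre markers on the table were tested, none differed between the muscles in the limma fit, and their median difference was 0.10; myoglobin (Mb), the oxygen store of muscle, had a mean of 12.49 ± 0.23 in gastrocnemius and 12.25 ± 0.39 in triceps (SD, n = 4 each). Array medians lay between 6.61 and 6.71. Pearson's r across probe sets was 0.969 to 0.973 among the gastrocnemius arrays, 0.935 to 0.961 among the triceps arrays and 0.915 to 0.969 between the muscles. The triceps arrays were thus the more spread, and 2 of them need a remark. NTg triceps replicate 1 lay nearest to gastrocnemius, with a mean r of 0.963 to its arrays, against 0.942, 0.945 and 0.923 for replicates 2, 3 and 4. NTg triceps replicate 4 has a free-text label that says gastrocnemius while its title, source and tissue labels say triceps. Its measured values for slow-fibre and position genes, given below, lay with the other triceps arrays. The slow-fibre genes were called with this array counted as triceps, and most position genes were dim, so calls made with it do not settle its label. Without it, 9 slow-fibre genes were still called. Of these, Myl3 read 6.02 in this array, against 9.93 to 12.22 in the 12 gastrocnemius arrays of the series. Hoxa9, a brighter position gene, read 7.09 against 5.81 to 6.41. In both genes the array lay with triceps.

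A total of 129 of 7523 tested probe sets (1.71%) passed an adjusted p of 0.05 in limma. Of these, 114 (1.52%) were higher in gastrocnemius and 15 (0.199%) lower. In 772 probe sets (10.3%) the 4 arrays of one muscle did not overlap the 4 of the other. With each gene read from its brightest probe set, 40 of 4832 genes were higher in gastrocnemius and 10 lower, and the median difference over all genes, gastrocnemius minus triceps, was -0.03. The count hung on single arrays: it was 327 without NTg triceps replicate 1, and between 30 and 81 without any one of the other 7, namely 37, 81, 33 and 43 without gastrocnemius replicates 1 to 4 and 30, 48 and 31 without triceps replicates 2 to 4. At gene level 14 of the 40 higher genes belonged to the slow-fibre sarcomere list and 26 did not; the 14 ranged from 9 to 14 over these fits, the 26 from 6 to 52 and the 10 lower genes from 1 to 26.

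**Figure D1:**
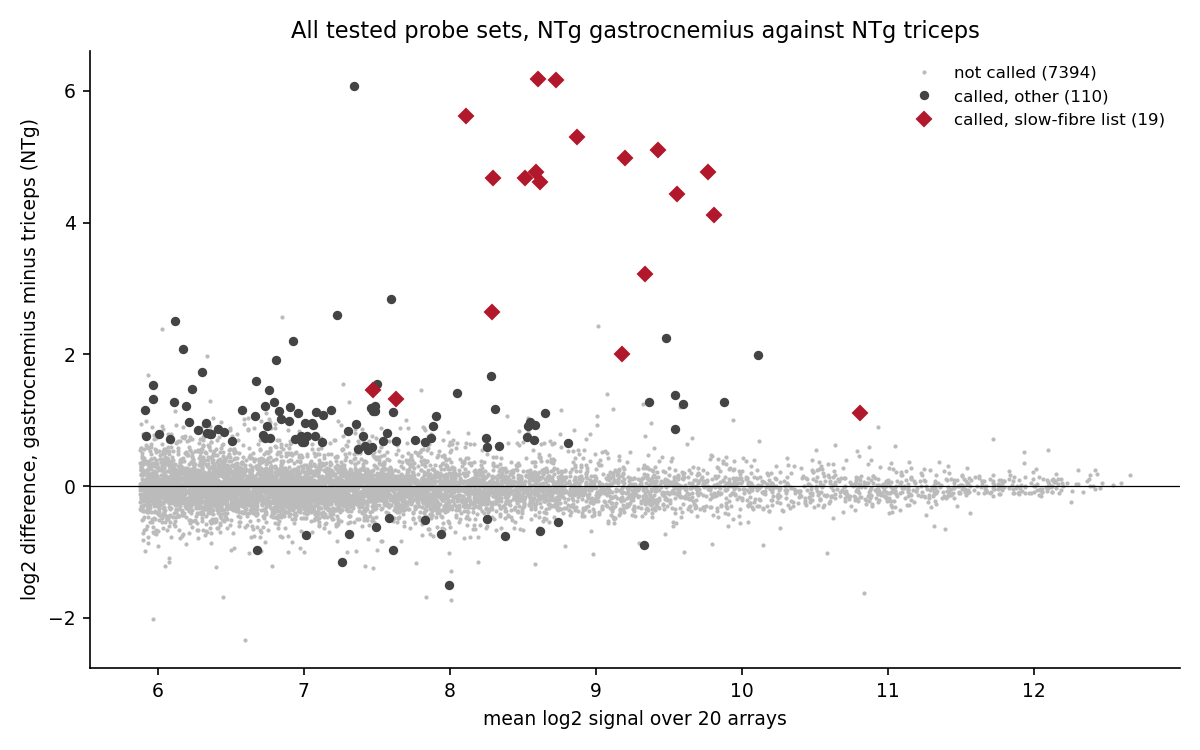
Difference between the muscles (log2, NTg gastrocnemius minus NTg triceps, vertical) against the mean log2 signal over all 20 arrays (horizontal) for the 7523 tested probe sets. The 19 called probe sets of the slow-fibre list (red diamonds) hold all differences above 3 but 1, the unnamed probe set at 6.07. The other 109 of the 110 further called probe sets (dark points) lie between -1.49 and 2.84, and the 7394 grey ones were not called.

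The slow-fibre sarcomere list had 16 genes on the table, 15 above the signal filter and 14 called higher in gastrocnemius, none lower. Its median difference was 4.44, against -0.03 over all genes tested. The upstream sequences of 4 of these genes are shown first, since promoter motifs of muscle factors are the usual place to look in genes that are high together. They are the 4 genes of largest difference with 1 listed start, each given as the 250 bases before the start in RefSeq (GRCm38.p6), on the gene's strand. Capitals mark matches on either strand to the MCAT element (CATTCC, bound by TEAD factors, read as GGAATG on the other strand), the TATA box (TATAAA) or the MEF2 site, the AT-rich motif of the MEF2 muscle factors. Tnnt1 (slow troponin T) lies at chr7:4515976-4516225 on the minus strand, Tnnc1 (slow and cardiac troponin C) at chr14:31208062-31208311 on the plus strand, Myl3 (slow and ventricular essential myosin light chain) at chr9:110763428-110763677 on the plus strand and Myoz2 (calsarcin-1, a Z-disc protein that binds calcineurin) at chr3:123034988-123035237 on the minus strand.
Tnnt1: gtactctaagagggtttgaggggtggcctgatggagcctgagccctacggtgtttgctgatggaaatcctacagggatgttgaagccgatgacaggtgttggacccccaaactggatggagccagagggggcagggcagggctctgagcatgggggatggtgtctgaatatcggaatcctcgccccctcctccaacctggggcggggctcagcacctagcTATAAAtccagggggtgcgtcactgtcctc
Tnnc1: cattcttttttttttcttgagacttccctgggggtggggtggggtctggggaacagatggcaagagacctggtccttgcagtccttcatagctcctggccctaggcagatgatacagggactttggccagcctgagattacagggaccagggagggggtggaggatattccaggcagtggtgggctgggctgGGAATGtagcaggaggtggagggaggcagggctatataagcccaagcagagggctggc
Myl3: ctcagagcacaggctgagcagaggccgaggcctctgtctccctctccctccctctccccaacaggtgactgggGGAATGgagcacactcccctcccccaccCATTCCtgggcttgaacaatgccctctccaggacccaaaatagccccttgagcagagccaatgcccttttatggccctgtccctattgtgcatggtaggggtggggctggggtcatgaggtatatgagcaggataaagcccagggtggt
Myoz2: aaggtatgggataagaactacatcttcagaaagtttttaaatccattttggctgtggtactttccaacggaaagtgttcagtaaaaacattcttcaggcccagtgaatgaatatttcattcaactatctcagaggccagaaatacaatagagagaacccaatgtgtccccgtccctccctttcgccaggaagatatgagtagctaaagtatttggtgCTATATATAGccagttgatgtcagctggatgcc

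The Tnnt1 sequence held a TATA box 30 to 25 bases before the start. In Tnnc1 an MCAT match lay 58 to 53 bases before it, and in Myl3 a pair of MCAT matches in opposite directions lay at 177 to 172 and 149 to 144 bases. Myoz2 held a MEF2 match at 33 to 24 bases. Over the 12 called slow genes with a window in the RefSeq table, 2 had a MEF2 match, 3 an MCAT match and 3 a TATA box at any listed start. The shares over all 27025 genes in that table were 3.42%, 14.4% and 14.3%. E-boxes (CANNTG, the short motif of MyoD and its relatives) were in all 12, and in 69.3% of all genes. Of 10 tested fast-fibre genes with a window, 3, 4, 3 and 8 held a MEF2, MCAT, TATA and E-box match. These shares were not tested, and a match is only these letters in this window.

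Myosin comes first. Myh7 encodes the slow myosin heavy chain that gives type I fibres their name. Its log2 signal was 11.72, 9.95, 12.04 and 11.63 in the gastrocnemius arrays and 7.69, 1.85, 7.50 and 3.64 in the triceps arrays. The muscles did not overlap, and the triceps values fell into a higher pair (replicates 1 and 3) and a lower pair (replicates 2 and 4). The difference was 6.16 ± 1.07 (SE), or 71.6-fold with a 95% interval of 15.3 to 335, at an adjusted p of 0.0051. MAS5 signals have no floor, so folds against arrays this dim are uncertain: with values under the 20th percentile of the table raised to it, the difference was 28.2-fold. Leaving out any 1 of the 8 arrays gave log2 differences of 5.05 to 7.0, all called. A further probe set annotated with several symbols, and therefore not named, followed the same pattern with a difference of 6.07.

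The slow light chains moved with it. Myl2 (slow and cardiac regulatory light chain) read 11.92, 11.10, 12.35 and 12.17 in gastrocnemius and 8.41, 5.90, 8.73 and 5.39 in triceps. Again the arrays did not overlap and triceps replicates 1 and 3 were the higher ones; the difference was 4.78 ± 0.64, adjusted p 3.03e-04. Myl3 (slow essential light chain) differed by 4.44 ± 0.45 (21.7-fold, 95% interval 11.3 to 41.9), and all 3 of its probe sets were called.

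In the thin filament, the regulators of contraction by calcium, the 3 slow troponin genes and slow tropomyosin were higher. Tnnt1 read 10.93, 9.32, 11.38 and 10.98 in gastrocnemius against 6.91, 1.64, 6.48 and 2.85 in triceps, a difference of 6.18 ± 1.10 (adjusted p 0.0063). Tnnc1 read 11.76, 10.14, 11.72 and 11.69 against 7.72, 5.60, 7.50 and 4.53, a difference of 4.99 ± 0.66 (adjusted p 3.03e-04). Neither gene had overlapping arrays, and gastrocnemius replicate 2 was the lowest of its muscle in both. Tnni1 (slow troponin I) differed by 5.62 ± 1.08 (adjusted p 0.012), which was 0.060 without triceps replicate 2, at its highest. Tpm3 (slow alpha-tropomyosin) differed by 4.68 ± 0.56 in its brightest tested probe set and by 4.67 in a second, while its other 2 probe sets differed by 0.30 and 0.50 and were not called. Tpm3 transcripts vary by cell type, and which of them each probe set reads was not examined.

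Calcium handling split by role. Atp2a2 encodes SERCA2, the slow and cardiac calcium pump of the sarcoplasmic reticulum. It read 11.44, 10.31, 11.96 and 11.58 in gastrocnemius and 8.38, 6.26, 7.91 and 6.26 in triceps. The gap between the lowest gastrocnemius and the highest triceps array was wide, the difference was 4.12 ± 0.61 (17.4-fold, adjusted p 9.35e-04), and all 3 tested probe sets were called. Sln (sarcolipin, a small peptide that inhibits the pump) read 7.99, 5.70, 8.63 and 7.70 against 0.59, 3.10, 2.27 and 2.88. Here triceps replicate 1 was the lowest array, unlike in the other slow genes. The difference was 5.29 ± 0.61 (39.2-fold, adjusted p 6.39e-05), but only 4.19-fold with the floor, since every triceps array lay under it. Casq2 (cardiac and slow calsequestrin, the calcium store) was higher by 1.32 ± 0.29. None of 20 further genes for calcium handling at the triad was called (median 0.00), and Pln (phospholamban), at a mean of 4.41 in gastrocnemius and 4.11 in triceps, fell below the filter.

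The remaining called members are structural. Myoz2 was higher by 3.21 ± 0.46, Ankrd2 (a stretch-response protein of the I-band) by 2.65 ± 0.62, Lmod2 (leiomodin 2, a thin-filament length factor) by 2.01 ± 0.41 and Actn2 (the alpha-actinin of all fibre types) by 1.11 ± 0.26. Csrp3 (muscle LIM protein) was the one tested member not called, at 2.43 ± 0.83 and an adjusted p of 0.15, with overlapping arrays. The calls of Ankrd2, Lmod2, Casq2 and Actn2 held in only 3 or 4 of the 8 fits that left out 1 NTg array, and that of Tnni1 in 5, while the other 9 called members held in all 8. These 9 alone remained without triceps replicate 2, triceps replicate 4 or gastrocnemius replicate 3, 10 of the 14 without gastrocnemius replicate 1 and 11 without gastrocnemius replicate 4.

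**Figure D2:**
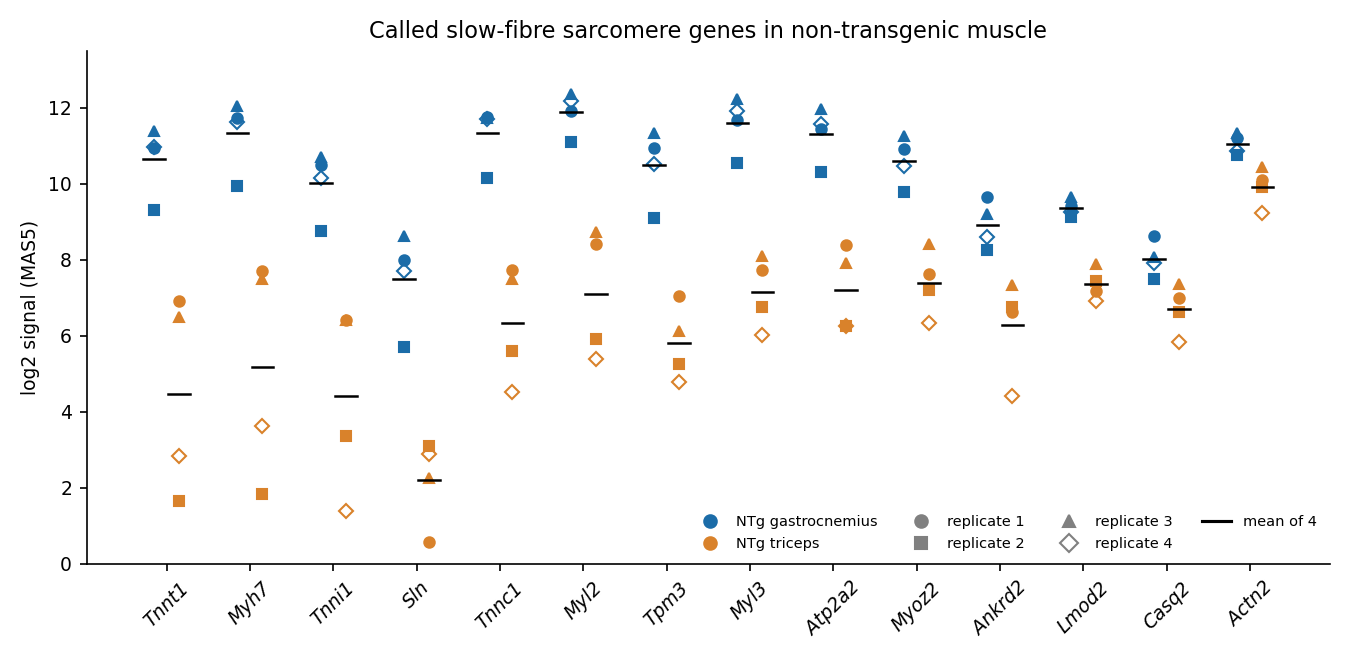
Log2 signal (vertical) of the 14 called slow-fibre genes (horizontal) in 4 NTg gastrocnemius (blue) and 4 NTg triceps (orange) arrays; marker shapes give the replicate and bars the mean of 4. The muscles do not overlap in any of the 14 genes, and triceps replicates 2 and 4 lie under replicates 1 and 3 in most of them, down to 1.40 in replicate 4 for Tnni1.

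Across the 14 genes the median signal per array was 10.94, 9.55, 11.33 and 10.70 in gastrocnemius and 7.41, 6.08, 7.50 and 5.08 in triceps. Triceps replicates 1 and 3 were above replicates 2 and 4 for the set as a whole, and gastrocnemius replicate 2 was the lowest of its muscle. In whole muscle, fewer slow fibres and less slow RNA per fibre cannot be told apart.

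Oxidative metabolism, which is richer in slow fibres, gave no call in the brightest probe set of a gene. Of 73 respiratory chain genes tested none was called, with a median difference of 0.00, and of 39 genes of the TCA cycle and fatty-acid oxidation none was called, with a median of 0.15. The largest difference there was that of Idh2 (mitochondrial isocitrate dehydrogenase), which read 10.04, 9.41, 10.73 and 9.78 in gastrocnemius and 8.89, 8.45, 8.79 and 8.80 in triceps. Its arrays did not overlap, but the difference of 1.25 ± 0.39 missed the threshold (adjusted p 0.11). Fabp3 (the muscle fatty-acid carrier) was at 0.90 ± 0.30 (adjusted p 0.15).

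Among 25 genes of glycolysis and glycogen use, 1 was called in its brightest probe set and the median was 0.03. It was Ldhb, the lactate dehydrogenase subunit of slow and cardiac muscle. Ldhb read 10.11, 10.01, 10.59 and 10.36 in gastrocnemius against 9.14, 8.92, 9.30 and 8.75 in triceps. The arrays were well separated, with a difference of 1.24 ± 0.24 (adjusted p 0.014), and the call was lost without triceps replicate 2, triceps replicate 4 or gastrocnemius replicate 3 (adjusted p up to 0.067). Its other tested probe sets differed by 1.17 to 1.40 and were not called (adjusted p 0.058 to 0.071). Ldha, the fast-muscle subunit, differed by 0.04 ± 0.28 and was not called. Bdh1, which oxidises the ketone body beta-hydroxybutyrate in mitochondria, was in no list and is named after its values were seen. It read 7.04, 6.70, 7.96 and 7.16 in gastrocnemius and 4.55, 4.61, 4.87 and 4.79 in triceps and did not overlap (2.51 ± 0.37, adjusted p 9.35e-04, called in all 8 fits without an array).

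None of the 16 tested fast-fibre genes was called, and their median difference was 0.10. Myh4, the fastest myosin heavy chain (type IIb), had means of 12.3 and 12.2 and a difference of 0.10 ± 0.25, with a 95% interval of -0.41 to 0.62. Myh1 (type IIx) was at -0.04 ± 0.22. Myh2 (type IIa) was at 0.55 ± 0.35 and Pvalb (parvalbumin, the calcium buffer of fast fibres) at 0.72 ± 0.43, both with intervals that include 0. Actn3, the alpha-actinin of fast fibres, was at 0.02 ± 0.27. The intervals of these genes reach beyond 0.4. A call needed an adjusted p under 0.05, a stricter demand than an interval without 0. Differences larger than 0.4 could therefore be missed too with 4 arrays a muscle.

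Regulators of fibre type gave no call either. None of 20 tested genes of the slow-fibre regulator and calcineurin list was called (median 0.01). Ppargc1a (PGC-1alpha, coactivator of mitochondrial genes) was at 0.25 ± 0.21 and Sox6 (a repressor of slow genes) at -0.27 ± 0.17. Rcan1, an inhibitor and target gene of calcineurin, was the largest at 1.0 ± 0.30 (adjusted p 0.10), and its dimmer probe set was called at 2.08 (adjusted p 0.0023). Lmcd1 (dyxin, a LIM protein of striated muscle), named after its values were seen, read 10.08, 9.74, 9.97 and 9.89 in gastrocnemius and 8.67, 8.29, 9.06 and 8.12 in triceps. It did not overlap and was called at 1.38 ± 0.22 (adjusted p 0.0019), in all 8 fits without an array too.

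Among 20 heat shock genes, Hspb7, a small heat shock protein of heart and skeletal muscle, was higher. It read 10.61, 9.75, 10.48 and 9.98 in gastrocnemius and 8.34, 8.75, 8.85 and 6.95 in triceps. Triceps replicate 4 was lowest, and all 3 probe sets were called (1.98 ± 0.39 in the brightest, adjusted p 0.014). That call was lost without gastrocnemius replicate 1, gastrocnemius replicate 3 or triceps replicate 4 (adjusted p up to 0.068). Hsph1 (Hsp105, a cochaperone of Hsp70) was lower at -0.75 ± 0.19 (adjusted p 0.045), although its other probe set differed by -0.12 and was not called, and the call held in 1 of 8 fits without an array. The median of the list was 0.02.

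Position genes were mostly too dim for the filter: 11 of them were on the table and 5 were tested, of which none was called. Without the filter, Hoxd10, a gene of the hind limb and lumbar spinal cord region, gave the largest difference. It read 5.35, 5.23, 4.96 and 4.24 in gastrocnemius and 0.07, 0.01, 1.05 and 0.89 in triceps. The muscles were far apart in every array, including triceps replicate 4 at 0.89, and the difference was 4.44 ± 0.51 (adjusted p 5.68e-05) and 4.57 without that array. In the 12 arrays of gastrocnemius in the whole series, with SOD1G93A and crushed muscle, Hoxd10 ran from 2.42 to 5.35, and in the 8 of triceps from 0.01 to 1.80. All 20 values lie under the floor used above, where the difference becomes 0. Neither the size of a difference nor an order can be relied on among signals this dim, so the Hoxd10 values are given only as read.

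Hoxa9 and Hoxa5 lay the other way. Hoxa9, expressed toward the hind trunk and in limb buds, read 6.32, 6.17, 6.39 and 6.20 in gastrocnemius and 6.76, 6.87, 6.50 and 7.09 in triceps. Its arrays did not overlap, though the difference of -0.54 ± 0.16 missed the threshold (adjusted p 0.10). Over the series it held its order, at 5.81 to 6.41 in 12 gastrocnemius arrays and 6.50 to 7.15 in 8 triceps arrays. Hoxa5, a gene of the neck and fore limb level, was at -0.83 ± 0.21 without the filter (adjusted p 0.042), a call that was lost without any of 6 of the 8 arrays and its ranges overlapped over the series. Hoxa10, Hoxd8, Hoxd9 and Tbx15 were tested, not called, and overlapped between the muscles. Hoxa3, Hoxa11 and Hoxa13 fell below the filter and also overlapped.

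Zic1, a zinc-finger gene, was also higher in gastrocnemius without the filter, at 1.86 ± 0.36 (adjusted p 0.012), with an adjusted p of 0.058 without gastrocnemius replicate 3 and a difference of 0 with the floor. Over the series its ranges overlapped, at 3.62 to 4.68 in gastrocnemius and 1.39 to 3.90 in triceps. The other transcription factors of this paragraph were named after their values were seen. Tbx1, a T-box gene of head and trunk muscle, read 6.31, 5.01, 6.45 and 6.60 in gastrocnemius and 1.30, 1.66, 2.43 and 1.34 in triceps (4.41 ± 0.53, adjusted p 7.24e-05). Its triceps arrays were all dim. Over the series the 12 gastrocnemius arrays lay at 5.01 to 6.60 and the 8 triceps arrays at 0.82 to 4.28. Prrx1 (a homeobox gene of limb mesenchyme) was higher by 1.29 ± 0.22. Irx5 and Irx3, a pair of Iroquois homeobox genes, were lower, at -1.56 ± 0.27 and -1.09 ± 0.20. Irx5 read 3.78, 4.65, 3.63 and 4.48 in gastrocnemius and 5.29, 5.83, 5.87 and 5.81 in triceps, and did not overlap between the muscles in the series either (3.63 to 4.88 against 5.11 to 5.87). With the floor, Tbx1 was at 0.77 and not called, while Irx3, Irx5 and Prrx1 were still called at -0.81, -0.30 and 0.92. Without the filter 55 probe sets under it were called, 50 of them higher in gastrocnemius, out of 3225.

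**Figure D3:**
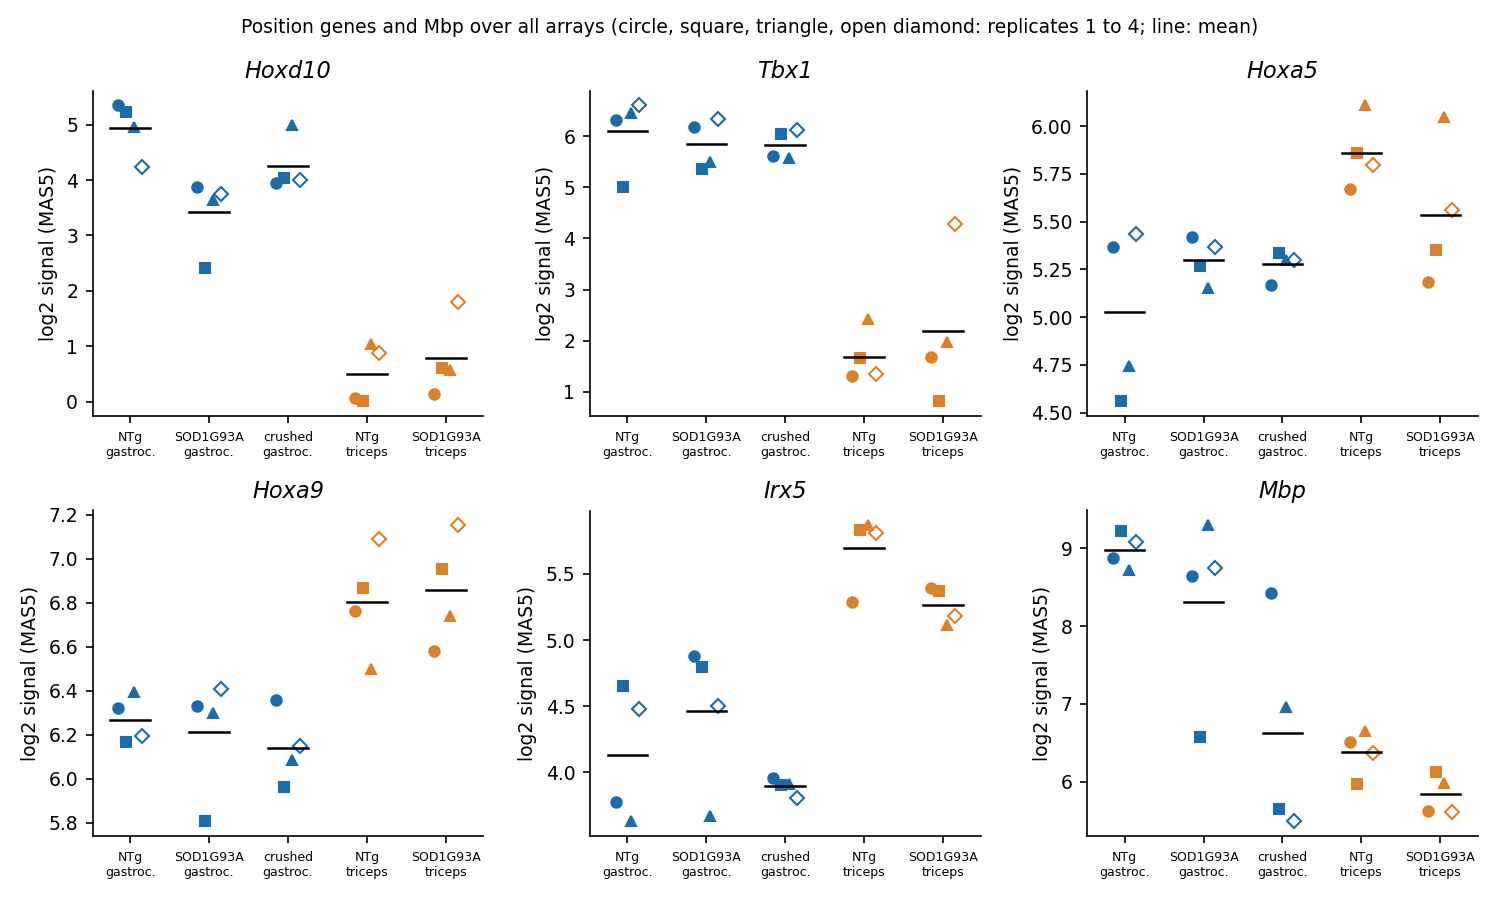
Log2 signal (vertical, own scale in each panel) of Hoxd10, Tbx1, Hoxa5, Hoxa9, Irx5 and Mbp in the 5 groups of 4 arrays (horizontal; gastrocnemius blue, triceps orange); shapes give replicates and bars means. Hoxd10, Tbx1, Hoxa9 and Irx5 separate the 12 gastrocnemius from the 8 triceps arrays as read, Hoxa5 and Mbp do not. Under the floor of 5.43 lie all 20 values of Hoxd10, all triceps values of Tbx1, and all gastrocnemius and some triceps values of Irx5. Signals under the floor have no order that can be relied on.

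Markers of other cells differed in a few cases. Mbp, myelin basic protein of Schwann cells, read 8.88, 9.23, 8.72 and 9.08 in gastrocnemius and 6.51, 5.97, 6.65 and 6.37 in triceps. The arrays were tight in both muscles and far apart (2.60 ± 0.52, 6.08-fold, adjusted p 0.015), and 2 of 4 tested probe sets were called. The call was lost without triceps replicate 2 or triceps replicate 4 (adjusted p up to 0.072). Of the Schwann cell and nerve list 8 genes were on the table and 3 tested. Pmp22, another myelin protein, was at 1.06 ± 0.32 (adjusted p 0.10) and Sox10, the Schwann cell transcription factor, at 0.38 ± 0.28 (adjusted p 0.60). Fa2h, Mal, Ngfr, S100b and Uchl1 fell below the filter, with means of 5.57 or less in both muscles. The summed linear signal of the 3 tested genes was 1041 to 1452 in gastrocnemius and 403 to 465 in triceps. The part of nerve tissue in these differences was not tested.

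Of 10 macrophage genes tested, 1 passed, and 8 had differences below 0 (median -0.49). C1qb, a chain of complement C1q, read 6.49, 6.81, 6.11 and 6.36 in gastrocnemius and 6.93, 7.42, 7.04 and 7.32 in triceps. The muscles lay close but did not overlap (-0.73 ± 0.16, adjusted p 0.023), and the call held in 3 of 8 fits without an array. A dimmer C1qb probe set was called too (-0.97), and both called ones are of the type that can cross-hybridise (ending in _x_at). Its remaining probe set differed by -0.55 and was not called (adjusted p 0.45). C1qa was at -1.68 ± 0.51 and Csf1r, the receptor of the macrophage growth factor, at -0.77 ± 0.23 (adjusted p 0.10 and 0.097). The summed signal of the list was 856 to 1069 in gastrocnemius and 1091 to 1713 in triceps. Of 10 fibroblast genes Dpt (dermatopontin, a matrix protein) was lower at -0.90 ± 0.22 (called in 2 of 8 fits without an array), and the list's median was -0.35. Adipocyte genes had a median of -0.60 and none of 8 was called; Thrsp, a lipid synthesis gene, stood at 11.11 in triceps replicate 4 and at 6.29 to 8.04 in the other 7 arrays.

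The other cell lists held 1 call between them in the brightest probe set of a gene. Rgs5, of the smooth muscle and pericyte list, was called only in a dimmer one (1.07, adjusted p 0.042). Abcc9, a potassium channel subunit on the smooth muscle and pericyte list, was called at 0.80 ± 0.18. Yet its triceps replicate 1 read 7.98, inside the gastrocnemius range of 7.92 to 7.99, and the other triceps arrays 6.77 to 7.06. Which cells this signal came from was not tested. The call held in 1 of 8 fits without an array. None of 12 endothelial, 6 tendon and cartilage, 3 satellite cell, 2 lymphocyte and granulocyte, 1 erythroid and 4 skin genes was called, at medians of 0.00, 0.24, 0.09, 0.07, -0.15 and 0.53. Tnmd, a tendon gene, was at 1.10 ± 0.33 (adjusted p 0.099), and Krt10, a skin keratin, read 8.65 and 7.71 in gastrocnemius replicates 1 and 4 and 5.41 to 6.23 in the other 6 arrays.

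The further lists gave no call in the brightest probe set of a gene. They covered 32 genes of the extracellular matrix (median -0.17), 35 ribosomal proteins (-0.01), 31 proteasome subunits (-0.01), 18 antioxidant genes (-0.02), 14 immediate-early genes (0.13), 14 atrophy and growth genes (-0.21), 11 clock genes (0.05) and 7 genes each of the neuromuscular junction (0.10) and of myogenic regulators (0.09). Myl4, the embryonic and atrial light chain, came nearest: its arrays did not overlap, at 6.75 to 7.09 against 5.31 to 5.48, and the difference was 1.55 ± 0.43 (adjusted p 0.077). Gpx3, the secreted glutathione peroxidase, was at -1.02 ± 0.27 (adjusted p 0.065). Over all tested genes, 58 were called by a dimmer probe set and not by their brightest. Beside Rcan1, those on any list were Nedd4, Atp1b1, Ppp1r3c, Dnajb4, Rgs5 and Pdha1. Nedd4, a ubiquitin ligase of the atrophy list, was called at 1.92 and 1.11 in 2 dimmer probe sets (adjusted p 0.029 and 0.031) and differed by 0.17 in the brightest.

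The genes called lower in gastrocnemius were few and changed little. Tnfaip2, an endothelial and macrophage gene induced by tumour necrosis factor, was the largest: 7.66, 7.73, 7.42 and 7.09 against 9.04, 9.24, 8.99 and 8.60. The muscles did not overlap (-1.49 ± 0.34, adjusted p 0.029), yet the call held in 2 of 8 fits without an array. Lrpap1, the chaperone of lipoprotein receptors, was lower at -0.72 ± 0.13 and was the one member of this group called in all 8 fits without an array, but its other 2 probe sets differed by -0.16 and -0.22. Grn (progranulin, a lysosomal and secreted protein), Tmx1 (a thioredoxin of the endoplasmic reticulum), Cacybp (a ubiquitin ligase adaptor), Rpn1 (ribophorin 1 of protein glycosylation) and Xpo7 (a nuclear exporter) had differences of -0.67 to -0.49 and were called in 1 or 2 of 8 fits without an array. Other tested probe sets differed by 0.24 for Xpo7, the opposite sign, by -0.12 for Tmx1, by -0.57 for Grn and by -0.38 to -0.02 for Rpn1, and none of these was called. Tpd52l1 at -0.59 and Slc25a39, the mitochondrial glutathione carrier, at -0.48 came next and were not called (adjusted p 0.063). Of the 15 probe sets called lower, 7 were of the type that can cross-hybridise (ending in _x_at), or 46.7%, against 9.56% of all tested and 2 of the 114 called higher.

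Outside the slow-fibre list 26 genes were higher in gastrocnemius. Beside Bdh1, Mbp, Hspb7, Lmcd1, Ldhb and Abcc9, those now named were picked after their values were seen. Pdlim1, a Z-disc LIM protein, was higher by 1.67 ± 0.28, Fxyd6, a regulator of the sodium pump, by 1.60 ± 0.36 and Homer2, a scaffold near calcium channels, by 1.13 ± 0.22. Of the 26 only Bdh1, Pdlim1, Lmcd1 and Cd55, which shields cells from complement and was higher by 0.97 ± 0.17, were called in all 8 fits without an array. Vapb, an endoplasmic reticulum tether protein mutated in a familial motor neuron disease, read 8.51, 8.50, 8.33 and 8.34 against 7.18, 6.97, 6.73 and 6.59. Its arrays were tight and apart (1.55 ± 0.34, adjusted p 0.023), but the call held in 1 of those 8 fits, and its other tested probe set had a difference of the opposite sign, -0.41 (adjusted p 0.22). Six2, a homeobox gene, was higher by 1.15 ± 0.24 and held in 2. Prkar2a, a regulatory subunit of protein kinase A, read 7.70, 7.65, 7.77 and 7.62 in gastrocnemius and 7.42, 5.78, 5.59 and 6.09 in triceps. Here triceps replicate 1 was the triceps array nearest to gastrocnemius, though under all gastrocnemius arrays.

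That last pattern was common outside the slow genes. Of the 95 other probe sets called higher, triceps replicate 1 was the triceps array nearest to gastrocnemius in 74 and lay within the gastrocnemius range in 23, while replicates 2, 3 and 4 lay within it in none. Its median gap to the gastrocnemius mean was 0.34, against 1.24, 1.17 and 1.16 for the other 3. Replicate 1 was also nearer over all 7523 tested probe sets. It lay below all gastrocnemius arrays in 1421 of them and above all in 1971. The counts were 2062 and 2575 for replicate 2, 2068 and 2401 for replicate 3, and 2331 and 2394 for replicate 4. The nearness is thus not particular to the 95, which were also picked by calls from these same arrays. For the 19 slow-fibre probe sets no triceps array lay within the gastrocnemius range, and replicate 1 had a median gap of 3.45. Without it, 52 rather than 26 genes outside the list were higher, and all 129 probe sets were still among the 327 called. Outside the list, 73 genes with any called probe set, higher or lower, had several tested ones. In 1 of them all probe sets were called and in 48 all had one sign, against 2 and 3 of 3 in the slow list. The 73 include the 58 genes called only by a dimmer probe set, in which not all can be called. The counts with all called can therefore not be compared between the lists. What sets this array apart was not tested.

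**Figure D4:**
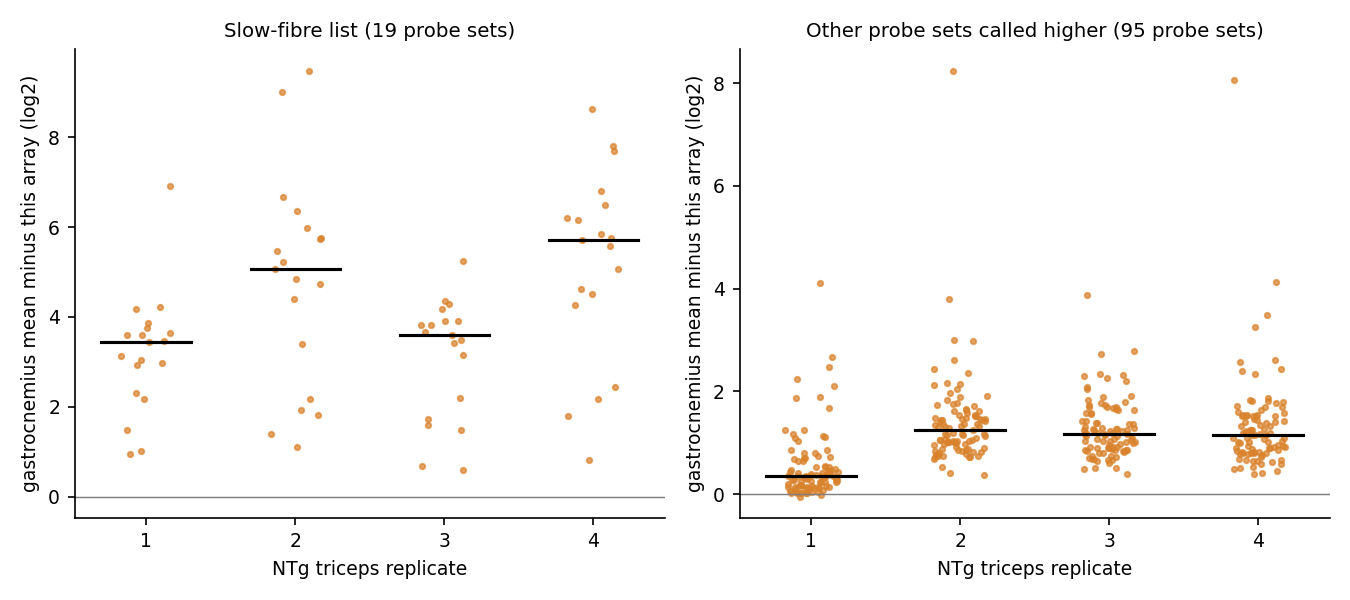
Gap between the gastrocnemius mean and each NTg triceps array (log2, vertical) by triceps replicate (horizontal), for the 19 slow-fibre probe sets (left) and the 95 other probe sets called higher (right); bars are medians. On the right replicate 1 lies near 0 (median 0.34) and the others above 1; on the left all 4 are far from 0 (medians 3.45 to 5.70).

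The same pair of muscles in SOD1G93A mice, 4 arrays each, were compared in the same fit. Their values were not part of the NTg means. They did enter the signal filter and the spread behind the NTg calls, so the 2 comparisons are not fully independent. These mice carried the transgene and were at a symptomatic stage at the same age, and both contrasts shared one estimate of spread. There 364 probe sets (4.84%) were called, 139 higher (1.85%) and 225 lower (2.99%). That balance depended on the setting: 166 were higher and 112 lower with the 75th percentile of each array subtracted, and 244 and 238 with a replicate block. It was 42 and 36 without SOD1G93A triceps replicate 1, 38 and 28 without gastrocnemius replicate 2 and 32 and 13 without triceps replicate 2. Of the 129 called in NTg mice 115 had the same sign, against 4646 of 7523 tested, and 41 were called with the same sign, or 31.8% of the NTg calls and 11.3% of those in SOD1G93A mice. For the slow-fibre list it was 19 of 19 in sign and 18 called, with median differences of 4.67 and 5.10. For the 95 other higher probe sets it was 84 in sign and 20 called, and the median difference was 0.97 in NTg and 0.34 in SOD1G93A mice. All these probe sets were picked by their NTg values, which raises the NTg medians, so the sizes cannot be compared between the genotypes. Of the 15 lower ones 12 kept their sign and 3 were called.

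Genes outside the slow list that were called in both genotypes included Bdh1 (2.51 and 2.99), Mbp (2.60 and 2.48), Ldhb (1.24 and 2.10), Pdlim1 (1.67 and 2.04), Lmcd1 (1.38 and 1.57), Homer2 (1.13 and 1.46), Tnfaip2 (-1.49 and -1.30) and Lrpap1 (-0.72 and -0.49). Vapb (1.55 and 0.20), Prkar2a (1.46 and 0.27), C1qb (-0.73 and 0.09) and Abcc9 (0.80 and -0.14) were not called in SOD1G93A mice. A test of the difference between the genotypes called 0 of 7523 probe sets in limma, with 710 (9.44%) at an unadjusted p under 0.05, so none of these is shown to differ. Sln had differences of 5.29 in NTg and 1.82 in SOD1G93A mice, where its triceps arrays read 9.52 to 11.71; its test of the difference gave an adjusted p of 0.39.

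**Figure D5:**
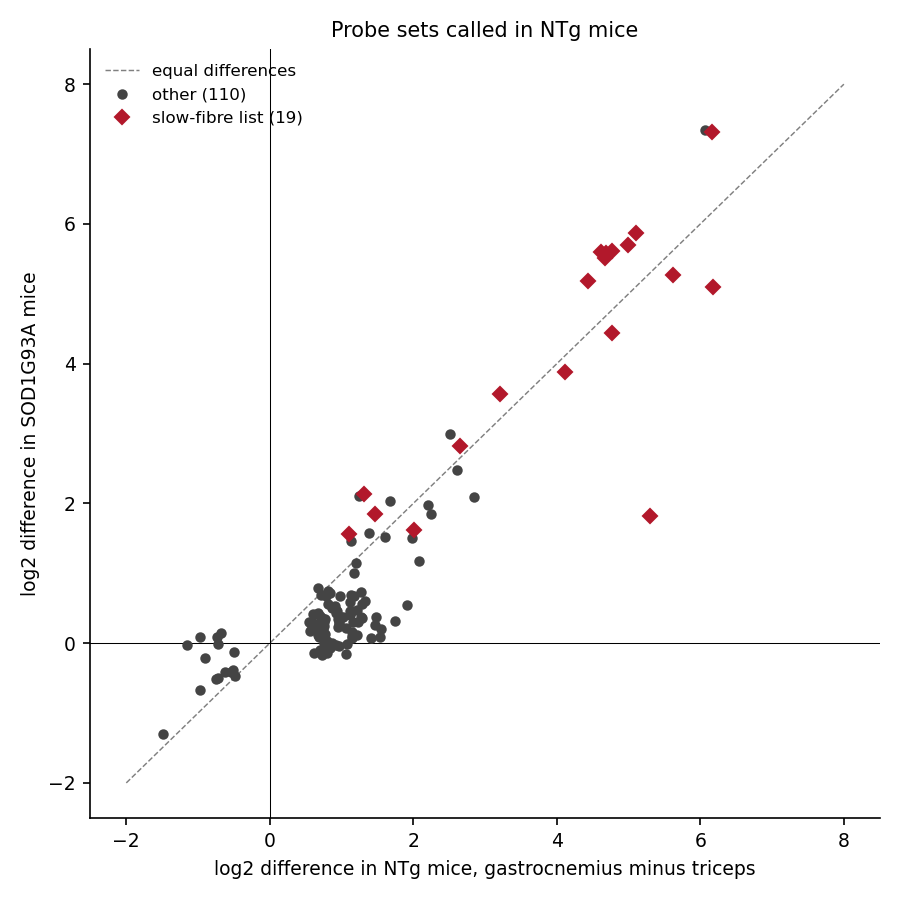
Muscle difference (log2, gastrocnemius minus triceps) in NTg mice (horizontal) and in SOD1G93A mice (vertical) for the 129 probe sets called in NTg mice; the dashed line marks equal differences. The 19 slow-fibre probe sets (red) lie near the line except Sln (5.29 against 1.82), and most of the 110 others lie between the line and 0. All 129 were picked by their NTg values, so a smaller SOD1G93A difference is likely from the choice alone.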

How the data were processed

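RNA of 8 NTg muscle samples was measured on Affymetrix arrays, 1 per sample, as part of 20 arrays. The deposited table holds 10748 probe sets as log2 signals that the authors made with MAS5, as the submitters' processing notes name it; the version, scaling target and filter of MAS5 are not given in the sources here. Values run from -3.66 to 13.3 and were used without further scaling. Detection calls were not used here. The number of arrays limits the precision.

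Probe sets in the lowest 30% by mean (under 5.88) were left out, leaving 7523. Group means of 5 groups were fitted to 20 arrays (limma 3.58.1, R 4.3.3, lmFit and eBayes with a trend; 15 residual degrees of freedom). Benjamini-Hochberg adjustment ran over the 7523 probe sets of each comparison, and an adjusted p under 0.05 was called. The fit was tested on simulated data. P-values measure only the spread between these samples. Symbols came from GEO's platform annotation: 9874 probe sets had 1 symbol (9862 matched to RefSeq, GRCm38.p6, by gene ID), 387 several and 487 none. A gene was read from its brightest tested probe set (4832 genes). Figures were drawn with matplotlib 3.10.9.

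The comparison, the 30 gene lists and the tests were chosen with earlier results of these data known. Named genes were the 12 largest called differences in each direction whose arrays did not overlap, filled up where fewer passed, called members of each list or its largest difference, every position gene on the table and all called slow-fibre genes; others are said to be named after their values were seen. Lists are described by counts and medians, with no set test. Replicate numbers were not taken as pairs. The settings tried instead were a 60% filter or none, quantile normalization, the 75th percentile of each array subtracted, a floor at the 20th percentile (5.43), fits on the compared arrays alone or without crushed gastrocnemius replicate 4, replicate blocks, array weights, a robust prior, no trend, the mean of a gene's probe sets and leaving out each array in turn. Upstream windows came from RefSeq (GRCm38.p6).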

Additional observations from a re-analysis of the deposited data

Results flagged for a closer look

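In 106 groups of 4 arrays examined over the named genes, 3 held an array far from the other 3; about 1 in 20 such groups would by chance. Tnnc1, slow troponin C, read 10.14 in NTg gastrocnemius replicate 2 and 11.69 to 11.76 in the other gastrocnemius arrays. Jph1, junctophilin 1 of the triad membrane, read 8.11 in NTg triceps replicate 1 and 6.44 to 6.68 in the others. Sdc4, a proteoglycan of satellite cells among others, read 5.94 in NTg triceps replicate 4 and 7.27 to 7.51 in the others.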

How the results depend on the processing

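The count of 129 probe sets was 80 with the lowest 60% left out, 361 with genotype and replicate number as a random replicate block and 360 with array weights. It ranged from 30 to 327 when single arrays were left out and from 116 to 190 under the other alternatives. The 116 came from the fit on only the 8 NTg arrays. Of these, 85 were higher and 31 lower, and only 68 were among the 129, so a similar count does not mean the same probe sets. The count of 364 in SOD1G93A mice was 564 without crushed gastrocnemius replicate 4, a fit added after seeing the data, and ranged from 45 to 828 when single arrays were left out. The test between genotypes gave 0 in all 3 added fits. The replicate block in the 8 NTg arrays gave 179 calls (130 higher, 49 lower), of which 93 were among the 129; deviations of arrays of one number correlated at 0.24, 0.13, 0.21 and -0.09 in NTg and at 0.57, -0.10, -0.04 and 0.62 in SOD1G93A mice, and the random block had a fitted correlation of 0.25. No label ties a number to a mouse and not every pair was positive, so the numbers were not taken as pairs. In SOD1G93A mice the block gave 482 (244 higher, 238 lower). Of the 28 called genes followed through the settings, 16 stayed called with the mean of a gene's probe sets, 21 with only the 8 NTg arrays and 10 to 28 without single arrays; all 14 slow-fibre genes stayed called under the alternatives that left out no NTg array, except 13 in the fit on only the 8 NTg arrays and with a robust prior. Of 1105 differences of named genes under alternatives, 1 reversed: Bpgm, not called, went from -0.15 to 0.23 with the mean of its probe sets; the cause was not tested. Quantile normalization moved the median of all probe sets from -0.03 to -0.02. No detection calls were used, so signals under the floor have no order that can be relied on.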
